A study of Mus musculus with 8 samples.

Results

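Nr1d1, Nr1d2, Rora, Dbp, Tef and Nfil3 are genes of transcription factors that work in or directly downstream of the circadian clock. They were followed here in MIN6-K8 cells, an established mouse insulinoma line that secretes insulin in culture. All 6 were found by symbol among the 3278 genes of the deposited table, which its authors named as a list of differentially expressed genes. The 6 genes were selected on their measured difference in level between treated and untreated cells, so those differences are given as a description without a test. RNA was sequenced from 4 libraries of untreated cells (Control) and 4 libraries of cells exposed to selenomethionine (SeMet) at 40 µM over 6 days. Selenomethionine is methionine with selenium in the place of its sulfur. Both groups were labelled as wild-type with IT6 as the background strain, and the controls were left untreated. The hour of harvest, and whether the cells were synchronised, were not stated in those sources that were used. With 1 time point a change in clock phase and a change in mean level cannot be told apart.

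The clock of mammalian cells is a feedback loop in which the activators CLOCK and BMAL1 (gene Arntl) switch on their own repressors, the period and cryptochrome proteins, through E-box sequences in DNA. A second loop is run by nuclear receptors. The REV-ERB proteins, encoded by Nr1d1 and Nr1d2, are heme-binding repressors that recruit a corepressor complex to ROR response elements, and the ROR proteins, of which Rora encodes RORα, activate through the same elements. A further layer acts on D-box sequences, where the PAR bZIP proteins DBP and TEF (a leucine zipper family rich in proline and acidic residues) activate and NFIL3, also called E4BP4, represses. Pancreatic beta cells have such a clock, and it is known to shape insulin secretion.

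Promoters of the 6 genes were searched for the sequences through which these factors act. The sequence does not depend on the measured levels. The genes were chosen as clock genes, however, and several are known targets of these factors, so matches are a description and no independent support. Promoter windows came from RefSeq on GRCm38.p6 and ran from 250 bases before to 50 bases after each annotated start. All 6 genes matched, with 7 windows, since Tef has 2 annotated starts. Both strands were searched, and the matches follow as 30-base stretches, 5′ to 3′ on the strand of the gene, with the matched letters in capitals.
Tef, first start, E-box: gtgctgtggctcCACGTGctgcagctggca
Tef, other start, E-box: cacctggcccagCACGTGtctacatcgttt
Tef, first start, relaxed D-box: cctttgcaaagTTAGATAAcaggccgggtt
Nr1d2, AGGTCA core: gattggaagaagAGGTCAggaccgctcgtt
Nfil3, AGGTCA core on the opposite strand: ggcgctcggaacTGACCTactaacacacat

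The E-box letters CACGTG were present in both Tef windows, at chr15:81802534-81802563 and chr15:81811264-81811293 on the plus strand. Both matches lie in the part of the window before the start. In GENCODE M21 the former stretch lies in a noncoding part of a Tef exon and the latter in an intron. Of all 32851 promoter windows, 7.15% held CACGTG, and the 2 of 7 windows here belong to 1 gene. AGGTCA, the core to which REV-ERB and ROR proteins bind, was found in Nr1d2 at chr14:18239166-18239195 and, as TGACCT, in Nfil3 at chr13:52981034-52981063, both genes being on the minus strand. The Nr1d2 stretch lies upstream of the gene and the Nfil3 stretch in a noncoding part of its exon. AGGTCA occurred in 16.3% of all windows. The longer ROR element, the core with its A and T flank, was in 0.219% of all windows and in no window of the 6 genes. The D-box letters TTATGTAA were in 0.938% of all windows and in none of the 7. The relaxed form TTANNTAA, which includes the strict form, was in 6.00% of all windows and in 1 Tef window, at chr15:81802488-81802517. Dbp, Nr1d1 and Rora held none of these letters in their windows. Elements elsewhere in or near the genes, or in other forms, were not searched for. The windows of the 6 genes ranged from 56.3% G and C in Nr1d1 to 81.7% in Nfil3, against a median of 52.7% over all windows.

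Levels are given as normalised counts, which appear to be read counts that the authors scaled with a single factor for each library. In each library all values were whole multiples of 1 step, the worth of 1 read, which lay between 0.885 and 1.15. The listed genes summed to 9083490 to 9858270 normalised counts per library. The beta cell label held by level: Ins2, an insulin gene, stood at 1115760 or more in every library. All 10 beta cell markers searched were listed, but the list was named for differences between the groups and not for cell type. Of these markers 8 were lower and 2 higher under SeMet, with a median log2 fold change of -0.17, and they summed to 2155260 to 2386110 in controls and 1940970 to 2166640 under SeMet. No marker of acinar, duct, endothelial or immune cells was listed, and their levels were not analysed here. The hormones of other islet cells differed between the groups: Gcg and Ppy summed to 352 to 464 in controls and 763 to 938 under SeMet, and Sst was not listed. Of 5 stromal markers only Col1a1 was listed, at 11.1 to 20.1 in controls and 2.78 to 9.57 under SeMet. Their part in the results below was not tested. In bulk RNA, fewer cells of a type and less RNA per cell cannot be told apart. The labels do not state whether a group's libraries stem from separate cultures, so errors and p-values reflect the spread between these libraries alone, and that spread may be technical.

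Of the 6 genes, 5 had lower means under SeMet and Nfil3 had a higher one. For 5 of the 6 genes no SeMet library reached into the range of the controls, 4 with SeMet below Control and Nfil3 with SeMet above. Among all listed genes the groups of 85.8% did not overlap, 45.6% with SeMet below and 40.3% with SeMet above. These counts are set by how the table and the members were chosen.

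**Figure D1:**
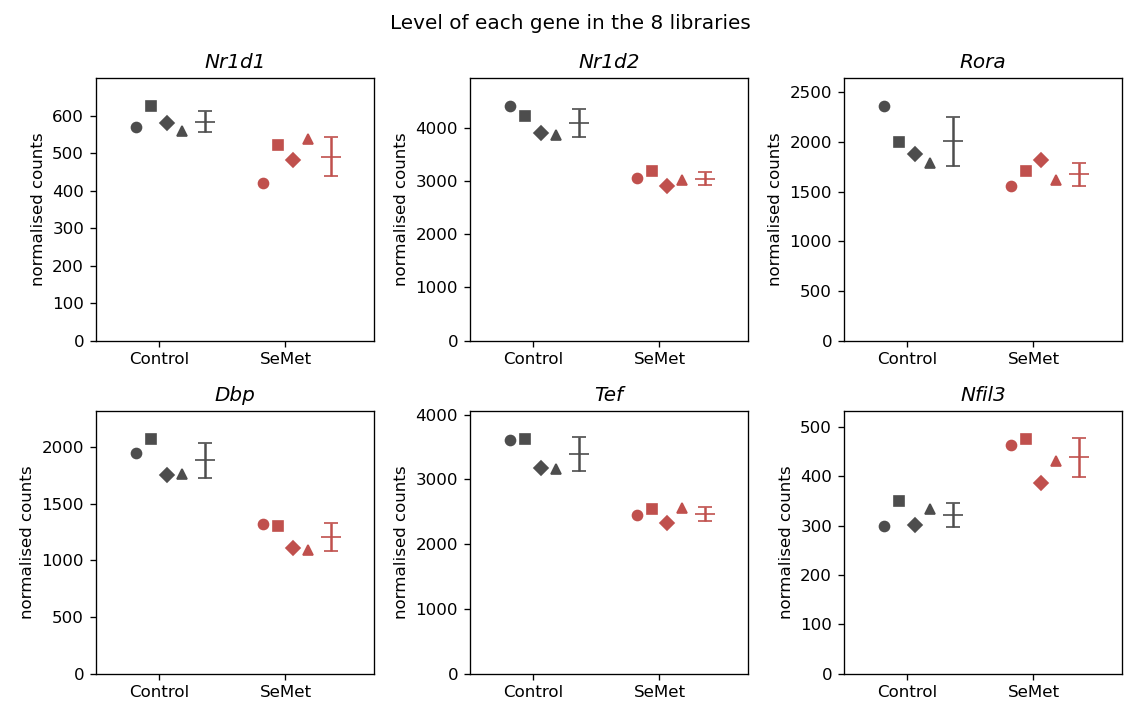
Normalised counts of each gene (y axis, starting at 0) in the 4 Control and 4 SeMet libraries (points, with a circle, square, diamond and triangle for replicates 1 to 4), with the mean and SD beside them. SeMet libraries lie below Control for Nr1d1, Nr1d2, Dbp and Tef and above for Nfil3, while those of Rora overlap.

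The REV-ERB genes are the repressors of the second loop. Nr1d2, encoding REV-ERBβ (ENSMUSG00000021775, chromosome 14, 18204054 to 18239127, minus strand, GRCm38 here and below), was at 4412, 4239, 3910 and 3867 normalised counts in controls 1 to 4. It was at 3072, 3195, 2907 and 3023 in SeMet libraries 1 to 4. Every SeMet library lay below every control, and the highest SeMet value was well under the lowest control. The mean went from 4107 ± 262 to 3049 ± 119 (mean ± SD of n = 4 libraries per group, as in the values that follow), which was 1.35-fold lower. Its log2 fold change, on the log2(value + 1) scale used throughout, was -0.43 ± 0.04 (SE, here and below), and 24.4% of listed genes had a larger one in absolute size.

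Nr1d1, encoding REV-ERBα (ENSMUSG00000020889, chromosome 11, 98767932 to 98775333, minus strand), stood at 570, 625, 581 and 560 in the controls. In the SeMet libraries it was at 421, 522, 482 and 539. The groups did not overlap, but SeMet library 4 came close to control 4, and SeMet library 1 was the lowest by a wide margin. The mean went from 584 ± 28.5 to 491 ± 52.4, with a log2 fold change of -0.26 ± 0.07. The coefficient of variation of Nr1d1 was 4.88% in controls and 10.7% under SeMet, whereas that of Nr1d2 was 6.39% and 3.90%. Exons of Thra, a thyroid hormone receptor gene on the opposite strand, overlap 8.5% of the Nr1d1 exons. Thra was not listed, and since it is not given whether the counting used strand, reads of the shared stretch cannot be assigned to either gene.

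Rora, the activator at the same elements (ENSMUSG00000032238, chromosome 9, 68653786 to 69388246, plus strand), was at 2356, 1994, 1880 and 1791 in controls 1 to 4. It was at 1554, 1707, 1817 and 1617 in the SeMet libraries. Rora was the only one of the 6 genes whose groups overlapped, because SeMet library 3 lay above control 4. Control 1 stood above the other controls, and the control coefficient of variation of 12.4% was the largest among the 6 genes in either group. The mean went from 2005 ± 248 to 1674 ± 114, a log2 fold change of -0.26 ± 0.08. The difference of Rora and that of Nr1d1 were both close to the middle of the table, with 49.8% and 49.6% of listed genes showing a larger absolute log2 fold change. An opposite-strand gene, Gm15511, overlaps 0.6% of the Rora exons.

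The PAR bZIP genes encode the activators at D-boxes. Dbp (ENSMUSG00000059824, chromosome 7, 45705088 to 45710203, plus strand), a direct E-box target of CLOCK and BMAL1, was at 1943, 2066, 1754 and 1761 in controls 1 to 4. It was at 1317, 1306, 1111 and 1087 in SeMet libraries 1 to 4. The groups were far apart, with the highest SeMet library well below the lowest control. Dbp had the largest difference of the 6 genes, from 1881 ± 151 to 1205 ± 123, or 1.56-fold lower, a log2 fold change of -0.64 ± 0.07. Of the listed genes, 13.3% had a larger one in absolute size. Exons of Sphk2, a sphingosine kinase gene on the opposite strand, overlap 18.0% of the Dbp exons. Sphk2 was itself listed, at 854 ± 36.8 in controls and 760 ± 36.5 under SeMet, with a log2 fold change of -0.17 ± 0.05, smaller than that of Dbp.

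Tef (ENSMUSG00000022389, chromosome 15, 81802421 to 81826863, plus strand), whose windows hold the E-boxes shown above, was at 3610, 3615, 3170 and 3167 in the controls. In the SeMet libraries it was at 2454, 2544, 2323 and 2553. All SeMet libraries lay below all controls. The mean went from 3390 ± 257 to 2468 ± 107, a 1.37-fold lower level and a log2 fold change of -0.46 ± 0.05, with 22.6% of listed genes further from 0. Exons of Gm17597, on the opposite strand, overlap 2.5% of the Tef exons.

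Nfil3, the repressor at D-boxes (ENSMUSG00000056749, chromosome 13, 52967209 to 52981073, minus strand), was at 300, 350, 302 and 333 in the controls. It was at 464, 475, 387 and 431 under SeMet. Every SeMet library lay above every control, and SeMet library 3 was the closest to them. The mean went from 321 ± 24.2 to 439 ± 39.5, a 1.37-fold higher level and a log2 fold change of 0.45 ± 0.08, with 23.1% of listed genes further from 0. Nfil3 was the only one of the 6 genes with a higher mean under SeMet, in a table where 47.0% of genes had one. Nfil3 rested on the fewest normalised counts of the 6 genes in both groups, and no other gene overlaps its exons in GENCODE M21.

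**Figure D2:**
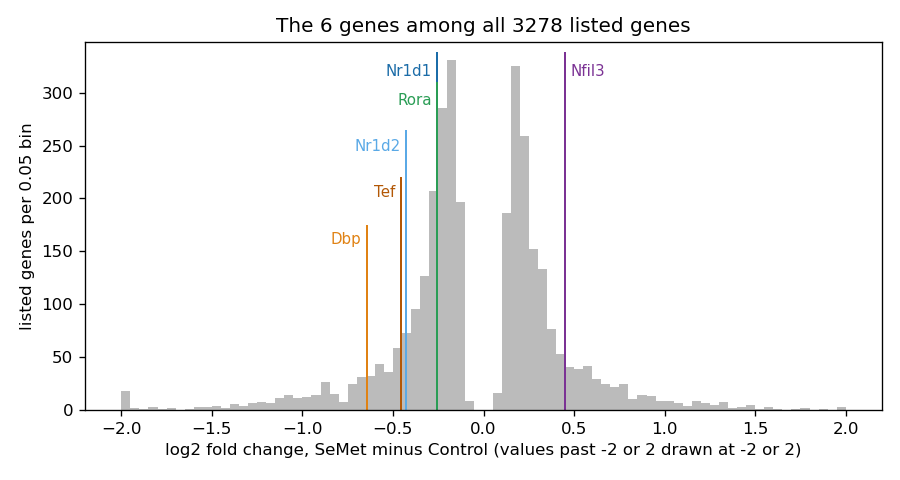
Histogram of the log2 fold changes of all 3278 listed genes (x axis, SeMet minus Control; y axis, genes per bin), with vertical lines at the 6 genes. Dbp lies furthest out at -0.64, Nr1d1 and Rora share a place at -0.26 and Nfil3 stands alone on the right at 0.45. Few listed genes lie near 0.

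Levels were compared between genes only after division by the length of each gene's exons, taken as the union of its annotated transcripts, which overstates the length of genes with many alternative ends such as Rora. Per kilobase, Nr1d2 was the most abundant of the 6 genes in controls, at 759 ± 48.5 normalised counts per kilobase. Dbp followed at 629 ± 50.5 and Tef at 431 ± 32.6. Nr1d1 was at 190 ± 9.26, Nfil3 at 159 ± 11.9 and Rora at 153 ± 19.0. The control libraries of neighbours in this order did not overlap except for Nfil3 and Rora, which were not separated by their spread.

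Under SeMet the first 3 places were the same, with Nr1d2 at 564 ± 22.0, Dbp at 403 ± 41.2 and Tef at 314 ± 13.6 normalised counts per kilobase. Nfil3 moved to the fourth place at 217 ± 19.5, above Nr1d1 at 160 ± 17.0, and Rora was at 128 ± 8.74. Nfil3 and Nr1d1 exchanged places, and in both groups their libraries did not overlap. Under SeMet the neighbours that overlapped were Nr1d1 and Rora.

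Ratios within each library set the activators against the repressors that share their elements and do not depend on the scaling of a library. The ratio of Dbp to Nfil3, per kilobase, was 4.38, 4.00, 3.93 and 3.57 in controls 1 to 4, and 1.92, 1.86, 1.94 and 1.71 under SeMet. The groups were far apart, and the mean ratio went from 3.97 ± 0.33 to 1.86 ± 0.11, which was 2.14-fold lower. The ratio of Tef to Nfil3 was 2.45 to 3.10 in controls and 1.36 to 1.55 under SeMet, 1.88-fold lower. These RNA ratios rest on the same values that chose the genes, and protein was not measured here.

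For the pairs that share ROR elements the groups overlapped. The ratio of Nr1d1 to Rora was 1.03, 1.33, 1.31 and 1.33 in controls, and 1.15, 1.30, 1.13 and 1.42 under SeMet. The means were 1.25 ± 0.15 and 1.25 ± 0.14, a difference far smaller than the spread between libraries. The ratio of Nr1d2 to Rora was 4.98 ± 0.31 in controls and 4.42 ± 0.39 under SeMet, 1.13-fold lower, with overlap between the lowest control, 4.53, and the highest SeMet library, 4.78.

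**Figure D3:**
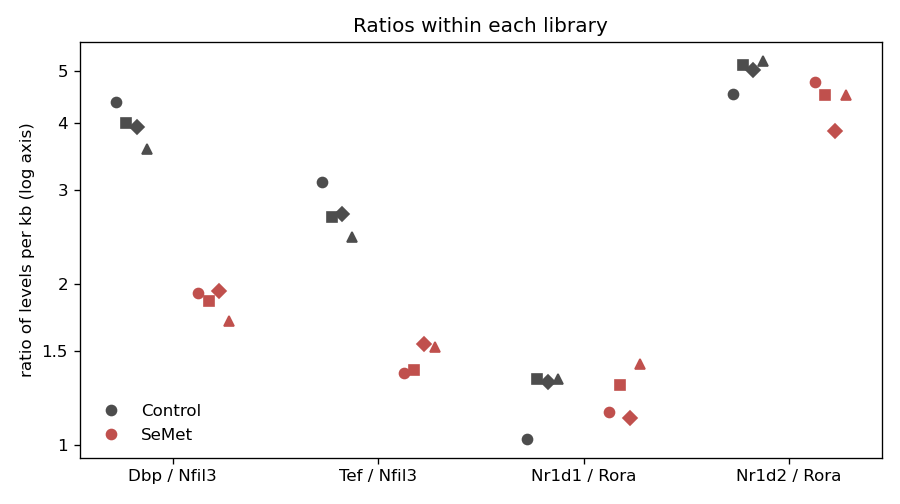
Ratio of levels per kilobase (y axis, log scale) within each library for 4 pairs of genes (x axis), Control in grey and SeMet in red, with the replicates marked by shape. The Dbp to Nfil3 ratio lies between 3.57 and 4.38 in controls and between 1.71 and 1.94 under SeMet, while both ratios over Rora overlap between groups.

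Within the groups the genes shared part of their variation between libraries. Controls 1 and 2 lay above controls 3 and 4 for Nr1d2, Rora, Dbp and Tef, and not for Nr1d1 or Nfil3. The spread was small beside the difference for Tef, whose controls lay within 0.10 of their mean on the log2 scale. For Dbp the SeMet libraries formed a similar pattern, with libraries 1 and 2 at -0.51 and -0.52 from the control mean on the log2 scale, and libraries 3 and 4 at -0.76 and -0.79. Rora under SeMet ran differently, with library 3 the highest and library 1 the lowest. Whether the replicate numbers mark pairs is not stated in the labels. The correlation of deviations between same-numbered libraries of the groups was 0.15 for replicate 2 and -0.01 to 0.02 for the others. Control 3 and SeMet library 4, with different numbers, reached 0.14, so these values do not decide it.

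**Figure D4:**
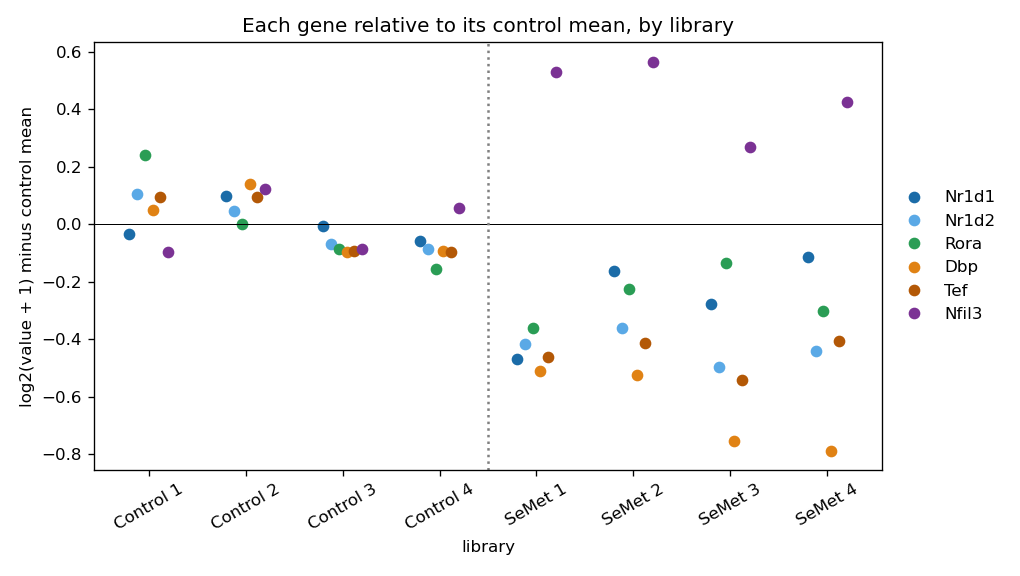
Log2(value + 1) of each gene minus its mean in the 4 controls (y axis) for each library (x axis), with 1 colour per gene. Control points lie between -0.16 and 0.24, and SeMet points of Dbp are the lowest of all, down to -0.79, with Nfil3 at 0.27 or more in all 4 SeMet libraries.

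The profile of each gene over the 8 libraries, centred on its control mean, was set against 3046 other listed genes with a symbol and a mean of at least 50. Likeness was the Euclidean distance in log2 units, which includes the difference between groups, so near neighbours share its size. Nr1d2 and Tef were closest to each other, at a distance of 0.11, nearer than any of the other genes to either. Outside the 6, Nr1d2 was nearest to Adh1, an alcohol dehydrogenase gene (0.11), and the small GTPase gene Rhoq (0.12). Tef was nearest to Ccdc85c (0.14) and to Wdr35, a gene of transport within cilia (0.15).

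Nr1d1 was nearest to Iqce (0.11) and Agbl5 (0.17), Rora to Zfp654 (0.12) and the phosphodiesterase gene Pde10a (0.13). The neighbours of Dbp were more distant, Pfkl, the liver-type phosphofructokinase gene, at 0.17 and Igfbp7, encoding a binding protein of insulin-like growth factors, at 0.18. Pfkl went from 16559 ± 1460 to 10351 ± 644 normalised counts, a log2 fold change of -0.68 ± 0.06. Nfil3 had the loosest match, Cryba2 at 0.21 and the sterol demethylation gene Msmo1 at 0.22. Cryba2, a crystallin gene, went from 785 ± 17.4 to 1115 ± 93.6.

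Other genes of the clock were taken from lists written from textbook knowledge. Of 8 clock repressors 7 were listed, and all 7 fell in limma, both with p-values adjusted over the listed genes and with those adjusted over all 55450 annotated genes, called the wider adjustment from here on. Over the listed genes 100.0% of the table passed (3277 of 3278), 47.0% higher and 53.0% lower. Under the wider adjustment 71.4% passed, 33.1% higher and 38.2% lower, and the counts of each list stand against these shares. The groups of all 7 repressors did not overlap, with SeMet below, as for 45.6% of the table. Their median log2 fold change was -0.41, against -0.13 for the whole table, where genes that rose and genes that fell are mixed. In absolute size the median of the whole table was 0.25. The period genes Per1, Per2 and Per3 had log2 fold changes of -0.50 ± 0.06, -0.40 ± 0.07 and -0.58 ± 0.06. The cryptochrome genes had the smallest, with -0.30 ± 0.05 for Cry1 and -0.18 ± 0.05 for Cry2. Bhlhe41, encoding the E-box repressor DEC2, fell by 0.41 ± 0.05. Ciart, a repressor of CLOCK and BMAL1, was at 156 to 202 in controls and 94.5 to 135 under SeMet, a log2 fold change of -0.63 ± 0.12. In size, the differences of Nr1d2, Tef and Dbp lay within the range of these 7 genes or just past it. Bhlhe40 was not listed, nor were the activators Clock, Npas2, Arntl and Arntl2, the ROR gene Rorb or the PAR bZIP gene Hlf, so none of these was analysed here.

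**Figure D5:**
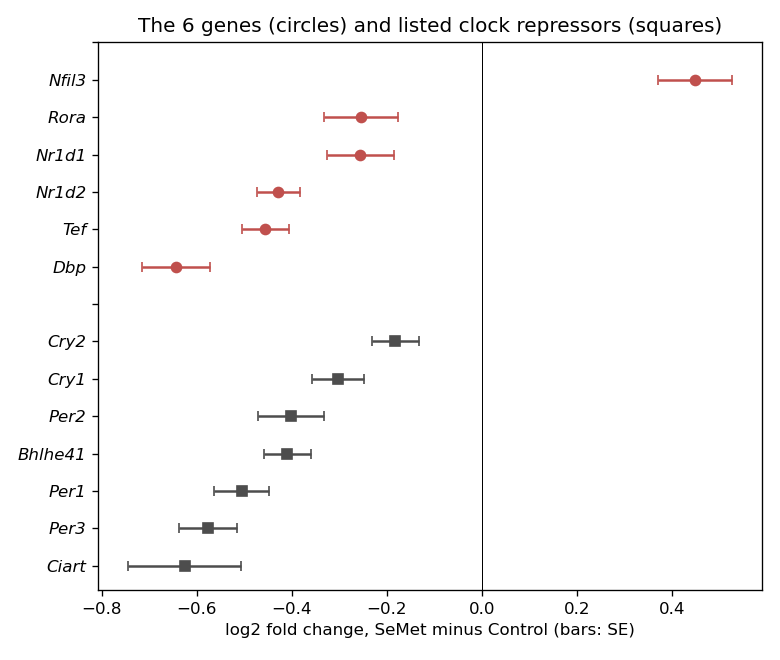
Log2 fold change, SeMet minus Control (x axis, bars showing the SE), of the 6 genes (circles) and of the 7 listed clock repressors (squares). Nfil3 is the only point on the positive side, at 0.45, and the others range from -0.18 for Cry2 to -0.64 for Dbp.

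Of 18 E-box target genes, 5 belong to the 6 genes, and of the other 13, 9 were listed and fell, and 8 of these fell under the wider adjustment. Of these 9, 7 are the clock repressors above. The others were Nampt, the enzyme gene of NAD salvage, and Wee1, a kinase gene of mitotic entry, both named after their values were seen. Nampt was at 3365 to 4091 in controls and 2674 to 2974 under SeMet. Wee1, with a log2 fold change of -0.16 ± 0.05, overlapped between groups and missed the wider adjustment (limma adjusted p = 0.123). Among 9 other D-box target genes 4 were listed, the period genes and Cry1, and all 4 fell. Among 11 other targets of REV-ERB and ROR proteins 2 were listed, and both fell: Cry1 and the lipoprotein lipase gene Lpl, by 0.42 ± 0.09 on the log2 scale.

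Cofactors and regulators of these proteins were mostly not listed. Of 8 corepressors and coactivators, Tbl1xr1 and Ppargc1a were listed. Ppargc1a, encoding PGC-1α, a coactivator of ROR proteins, was at 155, 145, 147 and 148 in controls and 72.7, 82.0, 84.6 and 88.9 under SeMet. The groups were well apart, with a log2 fold change of -0.85 ± 0.11 (passing the wider adjustment). Tbl1xr1, of the corepressor complex that REV-ERB proteins recruit, had a log2 fold change of -0.18 ± 0.06, which passed over the listed genes but missed the wider adjustment (limma adjusted p = 0.0945). Ncor1 and Hdac3 were not listed. Of 13 genes of clock kinases, ubiquitin ligases and related proteins, Btrc rose by 0.16 ± 0.04. Csnk2a1, with -0.14 ± 0.04, missed the wider adjustment (limma adjusted p = 0.0888). Of 10 genes of heme metabolism, which supplies the REV-ERB ligand, only Uros was listed, and it rose, with 578 to 624 in controls and 768 to 812 under SeMet. None of 6 C/EBP factors, bZIP relatives of the PAR proteins, was listed.

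Among the 46 nuclear receptor genes beside Nr1d1, Nr1d2 and Rora, 9 were listed. Over the listed genes 3 rose and 6 fell, and 2 and 5 did under the wider adjustment, with a median log2 fold change of -0.16. The largest in absolute size were Nr3c2, the mineralocorticoid receptor gene, with -0.60 ± 0.14, Nr2f2, encoding COUP-TFII, with 0.53 ± 0.16, and Ppard, encoding PPARδ, with -0.50 ± 0.06. Nr2f2 was at 36.3 to 48.3 in controls and 56.4 to 74.1 under SeMet, and missed the wider adjustment (limma adjusted p = 0.0744). The REV-ERB genes and Rora thus lay within the range of the other listed receptors. Over the clock and receptor lists together, without the cell type markers, 24 of 106 other genes were listed, of which 19 fell and 5 rose. Under the wider adjustment 15 fell and 4 rose.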

How the data were processed

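RNA of MIN6-K8 cells was sequenced in 4 Control and 4 SeMet libraries, grouped by sample title. Alignment used STAR and counting featureCounts, with mm10 as the build, per the submitters' processing notes. Versions, settings, strand and the scaling tool were not stated there. The deposited signal per gene appears to be a read count that the authors scaled with a single factor per library (whole multiples of 1 step within 1e-06), and how the 3278 genes were selected is not given. Recovered reads were not accepted as counts by a check of low values, so no count-based test was run.

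The analysis used log2(value + 1), unfiltered, in limma 3.58.1 (R 4.3.3, statmod 1.5.0) with trended and robust variance. Treatment was the only term. P-values were Benjamini-Hochberg adjusted over the listed genes (threshold 0.05) or, as an alternative, over all 55450 genes of GENCODE M21 (GRCm38), unlisted genes having a p of 1. The scripts were tested on simulated data. Of the identifiers, 3276 matched a symbol and a position. The 6 genes and the lists were chosen with earlier results of these data known. Beyond the 6, all listed clock repressors, the 3 largest changes of each longer list, the 2 nearest profiles per gene and genes overlapping in exons were named. Nampt and Wee1 were added after their values were seen. Same-numbered libraries had correlations of deviations of 0.01, 0.15, 0.02 and -0.01, so the numbers were not taken as pairs. Protein sequences were not used here.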

Additional observations from a re-analysis of the deposited data

How the results depend on the processing

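The signs of the log2 fold changes of the 6 genes were the same in all 14 alternatives run: pseudocounts of 0.5 and 10, a mean of at least 10, rescaling by the median ratio, limma without trend and robust estimation, the replicate block, and each library left out in turn. Over these, Dbp ranged from -0.69 to -0.60, Tef from -0.49 to -0.41, Nr1d2 from -0.46 to -0.38, Nr1d1 from -0.30 to -0.18, Rora from -0.31 to -0.18 and Nfil3 from 0.41 to 0.51. Leaving out SeMet replicate 1 gave the smallest Nr1d1 difference and leaving out Control replicate 1 the smallest Rora difference. In alternatives chosen after seeing the data, the number of the 6 genes whose groups did not overlap was 5 after rescaling, and 5 to 6 with each library left out, Rora being separated without Control replicate 4 or SeMet replicate 3. The log2 change of the Nr1d1 to Rora ratio ranged from -0.09 to 0.05. The mean of at least 10, limma without trend and robust estimation, and the replicate block left the fold changes as they were by construction. Where the groups of a gene do not overlap, leaving out any library cannot change the sign either. Those alternatives are therefore no test of the signs. The replicate block lowered the SE of each of the 6 genes, most for Dbp, from 0.07 to 0.04. Adjustment over all annotated genes took the corepressors and coactivators that fell from 2 to 1. It took the clock kinases and ligases that fell from 1 to 0. Both counts dropped because that adjustment also counts the unlisted genes, which were not themselves tested. The other 507 values recomputed under alternatives stayed within the spread between libraries or within 1.5 times their count. Many of them could hardly move, since some lists had no listed gene and nearly every listed gene passed over the listed genes. Genes that were not listed limit every count, and 4 libraries per group limit the precision of small differences such as that of Rora.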
